A study of Mus musculus with 12 samples.

Results

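The measurements concern 39 genes of DNA replication and the cell cycle in mouse embryonic fibroblasts (MEFs), connective tissue cells cultured from embryos. The genes were chosen by name: 15 of DNA replication, 8 G1 cyclins and cyclin-dependent kinases, 14 of G2 and mitosis, and the regulators E2f1 and Rb1. RNA came from Sirt2-/- cells (knockout) given mouse interferon beta (IFNβ) at 2500 IU/ml for 4 h, untreated Sirt2-/- cells, Sirt2+/+ cells (wild type) given the same IFNβ, and untreated Sirt2+/+ cells, each group measured on 3 Illumina bead arrays of 1 colour. Sirt2 encodes a deacetylase. The deleted part of Sirt2, the strain, the embryos, the passage number and any immortalisation are not given in the sources used here, nor whether a group's 3 samples were grown as separate cultures. The p-values therefore reflect the scatter among samples, which could be technical only. Probes are annotated for 37 of the 39 genes, the exceptions being Ccnb1 and Mki67. A gene was counted as measured when the 3 arrays of some group all gave 1 of its probes a detection p under 0.05, which was so for 35 of the 39 genes: all 15 replication genes, all 8 G1 genes, 10 of the 14 G2 and mitosis genes, and both regulators. Ccnb2 was detected on 1 untreated wild-type array alone and Bub1 on none, so neither has a value. The whole table holds 12128 genes measured by the same rule. Of these, 9723 carry a gene symbol, and the rest are probes without a single symbol, each counted as a gene in every share of all genes.

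Cells enter S phase when cyclin D with CDK4 or CDK6, and then cyclin E with CDK2, phosphorylate the retinoblastoma protein Rb, which releases E2F transcription factors. E2F target genes include those of the origin licensing machinery, such as the Mcm helicase, and of nucleotide synthesis. Genes of G2 and mitosis are transcribed later in the cycle, through promoter elements named the cell cycle genes homology region (CHR) and the CCAAT box, which binds the factor NF-Y. In cultured fibroblasts, transcripts of both classes are markers of proliferating populations, and in a bulk sample a smaller number of cycling cells cannot be told apart from less RNA per cell.

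The promoters of both classes differed in these elements. RefSeq promoter windows (mouse build GRCm38.p6, 250 bases before to 50 after the start) matched 30 of the 39 genes. Among the G2 and mitosis genes, Bub1, Ccnb1, Ccnb2 and Mki67 have a window but no measured value. Ccna2, Aurkb and Foxm1 have a value but no window. The windows of 4 genes are shown because they belong to the genes of their class with the largest called differences between untreated genotypes among those whose window holds the element of the class. For Mcm3 (chr1:20820263-20820562, minus strand) and Rrm2 (chr12:24708004-24708303, plus strand) the capitals mark E2F core matches. For Plk1 (chr7:122159185-122159484, plus strand) and Bub1b (chr2:118597961-118598260, plus strand) the capitals mark CHR matches.
Mcm3: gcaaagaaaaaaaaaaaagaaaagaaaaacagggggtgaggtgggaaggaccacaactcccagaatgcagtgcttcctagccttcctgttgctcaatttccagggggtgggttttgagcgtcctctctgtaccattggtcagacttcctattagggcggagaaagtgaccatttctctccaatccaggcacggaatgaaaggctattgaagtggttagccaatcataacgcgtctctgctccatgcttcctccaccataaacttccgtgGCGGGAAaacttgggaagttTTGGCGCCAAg
Rrm2: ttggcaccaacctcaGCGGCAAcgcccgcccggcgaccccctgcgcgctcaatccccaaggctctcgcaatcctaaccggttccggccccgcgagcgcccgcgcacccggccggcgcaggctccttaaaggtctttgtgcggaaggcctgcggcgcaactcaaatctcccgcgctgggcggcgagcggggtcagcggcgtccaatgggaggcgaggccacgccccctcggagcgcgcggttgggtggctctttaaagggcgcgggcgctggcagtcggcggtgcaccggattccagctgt
Plk1: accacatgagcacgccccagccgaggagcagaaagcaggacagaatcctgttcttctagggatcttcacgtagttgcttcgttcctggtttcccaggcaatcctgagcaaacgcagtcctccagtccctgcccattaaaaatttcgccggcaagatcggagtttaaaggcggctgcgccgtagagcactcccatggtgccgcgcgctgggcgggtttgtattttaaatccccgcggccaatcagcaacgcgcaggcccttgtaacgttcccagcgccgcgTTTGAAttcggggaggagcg
Bub1b: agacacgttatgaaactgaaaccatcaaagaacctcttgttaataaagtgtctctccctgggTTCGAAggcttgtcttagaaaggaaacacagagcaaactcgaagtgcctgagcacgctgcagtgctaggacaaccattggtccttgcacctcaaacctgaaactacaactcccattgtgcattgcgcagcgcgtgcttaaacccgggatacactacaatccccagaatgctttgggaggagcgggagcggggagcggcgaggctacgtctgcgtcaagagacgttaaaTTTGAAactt

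The E2F core was searched on both strands in the form TTCCCGC, in the form TTGGCGC, in the form TTCGCGC and in the form TTGCCGC, and 3 matches lay in the Mcm3 window, of which 2 overlap, against 1 in Rrm2. An E2F core match was found in 8 of 13 replication windows (61.5%), 3 of 11 G2 and mitosis genes (27.3%) and 1 of 5 G1 genes, compared with 10.9% of all genes with a window. The CHR was searched on both strands in the form TTTGAA and in the form TTCGAA, with 1 match in Plk1 and 2 in Bub1b. It was found in 9 of 11 G2 and mitosis genes (81.8%), 2 of 13 replication genes (15.4%) and 0 of 5 G1 genes, compared with 21.7% of all genes. The CCAAT box was found in 10 of 11 G2 and mitosis genes (90.9%), 9 of 13 replication genes (69.2%) and 2 of 5 G1 genes, compared with 41.1% of all genes. These matches describe the letters of the windows and are not measured binding sites.

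**Figure D1:**
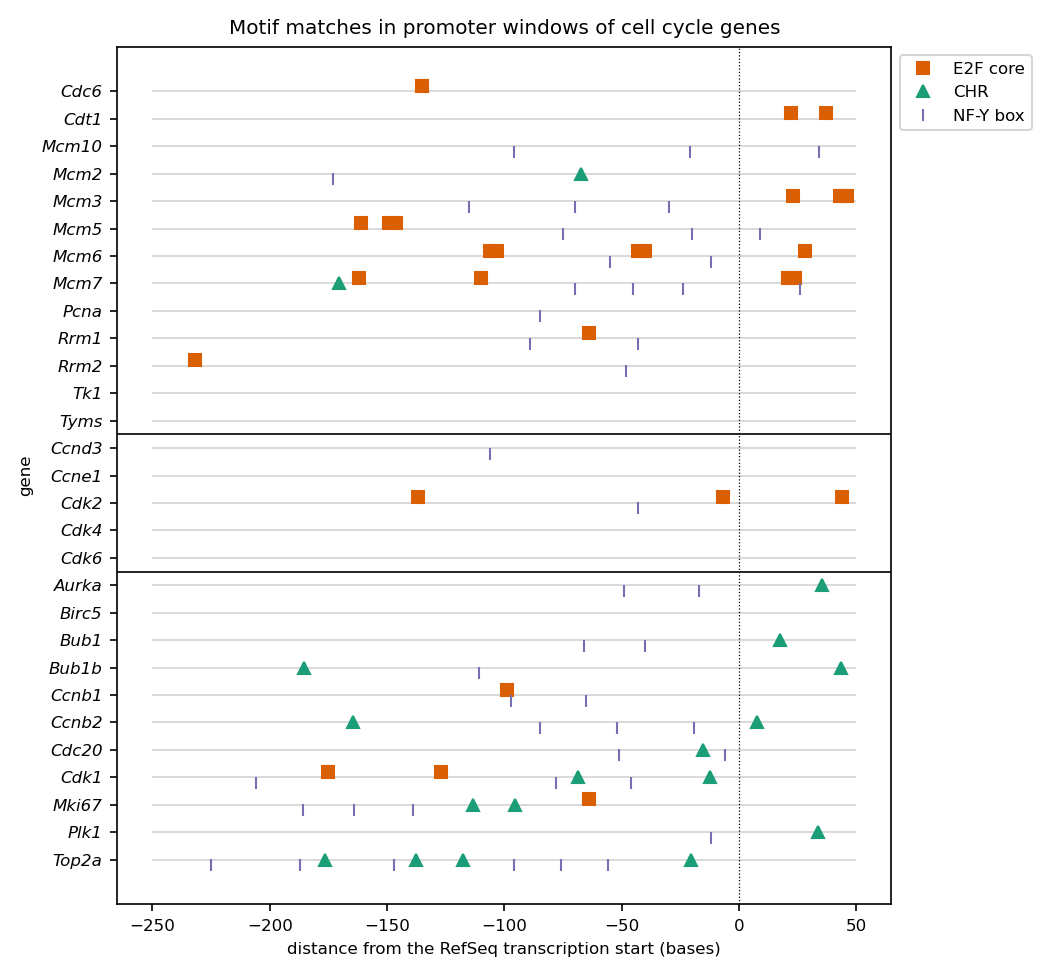
Positions of E2F core (squares), CHR (triangles) and CCAAT box (NF-Y box, ticks) matches in the promoter windows of replication (top), G1 (middle) and G2 and mitosis genes (bottom), as the distance in bases from the RefSeq start. Squares fall mostly in the top block (8 of 13 genes) and triangles in the bottom block (9 of 11 genes).

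The arrays had 17091 to 18155 detected probes of 45281 and median intensities of 111 to 119.9, and Pearson's r across probes, which are not independent replicates, was 0.987 to 0.996 between arrays of the same group. Sirt2 was at 5.86, 6.37 and 6.15 on the IFNβ-treated knockout arrays and 6.04, 6.66 and 6.61 on the untreated knockout arrays, against 9.23, 8.76 and 8.97 on the treated and 8.72, 8.89 and 8.94 on the untreated wild-type arrays (log2 intensity). All knockout arrays were thus below all wild-type arrays, although whether the probe lies in the deleted part is not known. Untreated knockout arrays 2 and 3 stood apart: the mean log2 level of 6 interferon-induced genes was 10 and 10.73 on them and 6.19 on array 1, compared with 12.97 to 13.25 on the treated knockout arrays. On the wild-type arrays the same mean was 13.11 to 13.19 with IFNβ and 5.14 to 5.42 untreated. On treated wild-type array 2, Cdkn2a was at 6.42, compared with 4.33 to 4.63 on the other wild-type arrays. The main counts of calls over the 35 genes are also given without these arrays. All 10 fibroblast markers were measured. In untreated cells 7 of them were lower on every knockout array (Col3a1, Pdgfra, Pdgfrb, Thy1, Vim, Fbln1, Twist1). The arrays overlapped for Col1a1 (mean 11.78 in the knockout, 11.36 in wild type), Fn1 (9.89 and 9.67) and Col1a2 (10.78 and 10.95). The log2 of the markers' summed intensity was 13.75 to 13.98 on the knockout and 14.65 to 15.05 on the wild-type arrays. The summed epithelial markers (2 of 4 measured) were at 6.65 to 7.08 on the knockout and 9.08 to 9.71 on the wild-type arrays. The measured markers of muscle and of neural cells did not move together. Of the muscle markers (2 of 7 measured) Acta2 was lower in the knockout (-0.77 ± 0.11 with IFNβ, -0.61 ± 0.11 without) and Tagln higher (1.87 ± 0.16 and 1.71 ± 0.16). Their sum, most of it Acta2, was at 14.16 to 14.55 on the knockout and 14.80 to 15.07 on the wild-type arrays. Of the neural markers (2 of 3 measured) Nes was higher (1.14 ± 0.14 and 1.06 ± 0.14) and Sox2 lower (-1.34 ± 0.17 and -1.67 ± 0.17), and their sum was at 10.36 to 10.72 on the knockout and 9.35 to 10.04 on the wild-type arrays. Epcam, the haematopoietic markers Ptprc and Lyz2, the endothelial markers Pecam1 and Kdr and the muscle regulator Myod1 were detected on no array. Several of the measured markers thus moved with genotype, not all in 1 direction, and their part in the genotype differences was not tested.

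Without IFNβ, most of the measured cell cycle genes differed between knockout and wild type, and the direction depended on their role. Of the 35 genes, 21 were higher in the knockout, 8 were lower and 6 did not pass the test (limma, Benjamini-Hochberg adjusted p under 0.05 over all 12128 genes). This is 82.9% of the genes, and over all genes measured 51.2% passed (27.1% higher, 24.2% lower). The median difference, knockout minus wild type, was 0.33 on the log2 scale, on which 1 is a 2-fold change, compared with 0.05 over all genes. The values of the knockout arrays did not overlap with those of the wild type for 30 of the 35 genes (85.7%, against 58.2% of all genes). Without untreated knockout arrays 2 and 3, which leaves a single array assumed to vary like those of the other groups, 24 of the 29 calls remained (18 higher, 6 lower). The calls of Tyms, Cdk2, Cdk1, Birc5 and E2f1 were lost, and the median was 0.48. In that fit 37.8% of all genes passed.

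**Figure D2:**
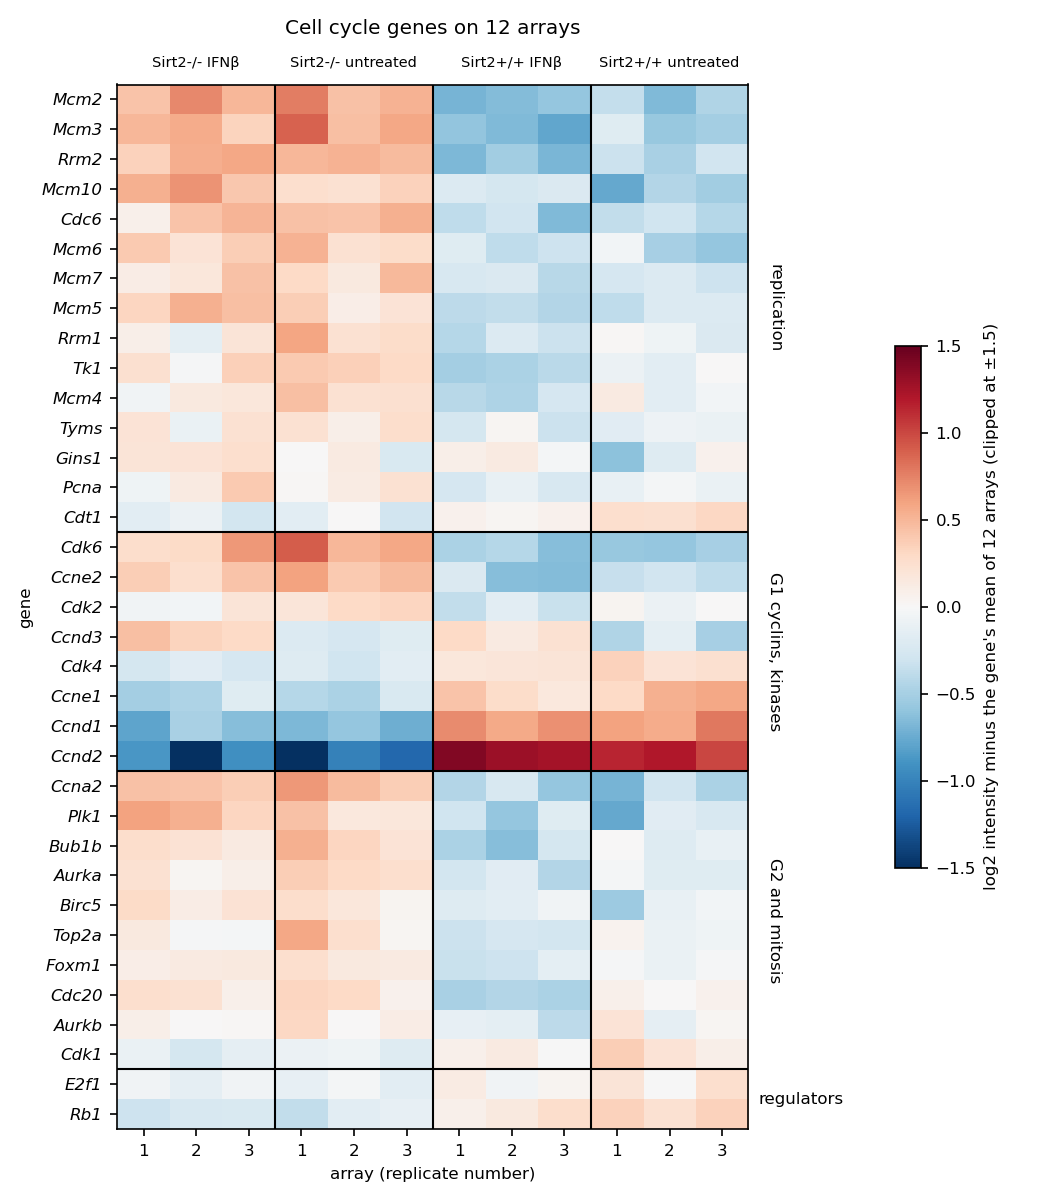
Log2 intensity of 35 genes on each of 12 arrays, minus the mean of the gene over the arrays (red above, blue below, clipped at 1.5 on either side), with IFNβ-treated and untreated Sirt2-/- arrays left of the Sirt2+/+ arrays and genes ordered by role. Most replication and G2 and mitosis genes are red on the knockout arrays, whereas Ccnd1, Ccnd2, Ccne1 and Cdk4 are blue there.

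The replication genes were higher in the knockout with few exceptions. In untreated cells 12 of 15 rose (80%, against 27.1% of all genes), with a median difference of 0.49. They comprise Mcm2, Mcm3, Mcm4, Mcm5, Mcm6 and Mcm7, the subunits of the replicative helicase, Mcm10, which helps activate it, Cdc6, which loads it, Rrm1 and Rrm2, the subunits of ribonucleotide reductase, and Tyms and Tk1, which make and salvage thymidylate. Cdt1, the other loading factor, fell (-0.41 ± 0.10 SE, adjusted p = 0.00324). The clamp Pcna (0.20 ± 0.12) and the helicase cofactor Gins1 (0.22 ± 0.15) did not pass the test.

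Mcm2 was measured at 11.24, 11.53 and 11.31 on the treated and 11.57, 11.25 and 11.33 on the untreated knockout arrays, against 10.11, 10.16 and 10.23 on the treated and 10.45, 10.15 and 10.36 on the untreated wild-type arrays (log2 intensity). Every knockout array was above every wild-type array. The difference was 1.20 ± 0.12 (SE) with IFNβ and 1.07 ± 0.12 without, or 2.29-fold and 2.09-fold (adjusted p = 2.83e-06 and 7.92e-06). Mcm3 was at 9.72, 9.78 and 9.56 on the treated and 10.11, 9.67 and 9.80 on the untreated knockout arrays, against 8.63, 8.56 and 8.44 on the treated and 9.04, 8.65 and 8.71 on the untreated wild-type arrays. Again no knockout array reached down to the wild type, and untreated array 1 was the highest of its group in both genotypes. Mcm3 was 2.21-fold higher in treated knockout cells (1.14 ± 0.14) and 2.09-fold higher in untreated ones (1.06 ± 0.14). Rrm2 was at 10.17, 10.36 and 10.40 on the treated and 10.32, 10.34 and 10.30 on the untreated knockout arrays, against 9.15, 9.30 and 9.14 on the treated and 9.50, 9.34 and 9.53 on the untreated wild-type arrays. The knockout values were all above the wild-type values, and the lowest Rrm2 values were those of treated wild-type cells. The difference was 1.11 ± 0.10 with IFNβ and 0.86 ± 0.10 without, and the adjusted p was 9.44e-07 and 9.31e-06. A dimmer probe of Rrm2 differed by 0.08 ± 0.15 in untreated cells, which did not pass the test.

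The other replication genes that rose in untreated knockout cells did so by 0.30 (Tyms) to 0.85 (Mcm10) on the log2 scale. Mcm10 was 1.80-fold, Cdc6 1.77-fold, Mcm6 1.64-fold and Mcm7 1.47-fold higher, and Mcm5, Rrm1, Tk1 and Mcm4 were between 1.26-fold and 1.40-fold higher. The call of Tyms (adjusted p = 0.0483) was lost in 11 of 19 other settings of the analysis. For Cdc6 a dim second probe went the other way in untreated cells (-0.35 ± 0.11, adjusted p = 0.0178), but was higher in the knockout with IFNβ (0.60 ± 0.11). The mean of the Cdc6 probes differed by 0.24 in untreated cells (adjusted p = 0.0573).

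Mcm6 has 4 measured probes, and all were higher in the knockout but by unequal amounts. The brightest, which stands for the gene, differed by 0.72 ± 0.14 in untreated cells, and 2 others by 0.97 ± 0.13 and 0.71 ± 0.18. The remaining probe was at 11.42, 11.37 and 11.63 on the treated and 11.30, 11.26 and 11.36 on the untreated knockout arrays, against 7.50, 8.70 and 7.63 on the treated and 6.97, 7.29 and 7.01 on the untreated wild-type arrays. It was far higher on all knockout arrays, and treated wild-type array 2, on which Cdkn2a was also high, was the highest of the wild-type arrays. Its difference was 3.53 ± 0.24 with IFNβ and 4.22 ± 0.24 without, so 1 probe of Mcm6 showed a difference several times that of the other 3. Without treated wild-type array 2 its difference with IFNβ was 3.90 ± 0.13.

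The G1 cyclins and their kinases did not move as a group. In untreated cells 3 were higher in the knockout (Ccne2, Cdk2, Cdk6), 4 were lower (Ccnd1, Ccnd2, Ccne1, Cdk4) and Ccnd3 did not pass the test, and the median difference was -0.17. Of the 8 genes 37.5% were thus higher and 50% lower, compared with 27.1% and 24.2% of all genes. The calls were the same with IFNβ, where the median was -0.13. Both groups of partners were split: of the D-type cyclins Ccnd1 and Ccnd2 fell and Ccnd3 did not pass, and of the E-type cyclins Ccne1 fell while Ccne2 rose.

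Ccnd2, a D-type cyclin, was at 9.66, 8.87 and 9.62 on the treated and 8.91, 9.52 and 9.36 on the untreated knockout arrays, against 11.92, 11.82 and 11.78 on the treated and 11.68, 11.73 and 11.54 on the untreated wild-type arrays. All knockout arrays were below all wild-type arrays, and the knockout arrays were more spread within their groups. Ccnd2 was 5.48-fold lower in treated knockout cells (-2.45 ± 0.20, adjusted p = 4.04e-07) and 5.24-fold lower in untreated ones (-2.39 ± 0.20, adjusted p = 5.36e-07). Without untreated knockout arrays 2 and 3 the untreated difference was -2.74 ± 0.26. Ccnd1, the main D-type cyclin of fibroblasts, was at 12.18, 12.49 and 12.34 on the treated and 12.30, 12.40 and 12.24 on the untreated knockout arrays, against 13.69, 13.54 and 13.66 on the treated and 13.58, 13.53 and 13.77 on the untreated wild-type arrays. The groups of the genotypes lay well apart. The difference was -1.29 ± 0.11 with IFNβ and -1.31 ± 0.11 without, and the 3 probes of Ccnd1 ranged from -1.31 to -1.42 in untreated cells.

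Cdk6, a kinase partner of the D-type cyclins, was at 5.32, 5.34 and 5.70 on the treated and 5.96, 5.55 and 5.63 on the untreated knockout arrays, against 4.58, 4.62 and 4.42 on the treated and 4.49, 4.47 and 4.56 on the untreated wild-type arrays. It was detected on every knockout array and on no wild-type array. Its fold is a lower bound, against the lowest signal of a detected probe: at least 1.42-fold higher with IFNβ and at least 1.73-fold higher without. Its probe passed the detection filter through the knockout groups alone, so only a higher level in the knockout could be called. The counts of higher genes include Cdk6. Cdk4, the other partner, was 1.33-fold lower with IFNβ and 1.40-fold lower without. Ccne1 differed by -0.67 ± 0.12 with IFNβ and -0.85 ± 0.12 without, and Ccne2 by 0.85 ± 0.12 with IFNβ and 0.83 ± 0.12 without, so these cyclins of the same kinase differed by similar amounts in opposite directions. Cdk2, their kinase, was 1.25-fold and 1.21-fold higher, and its call was lost in 3 of 19 other settings with IFNβ and in 6 without, among them the fit without untreated knockout arrays 2 and 3 (adjusted p = 0.349).

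**Figure D3:**
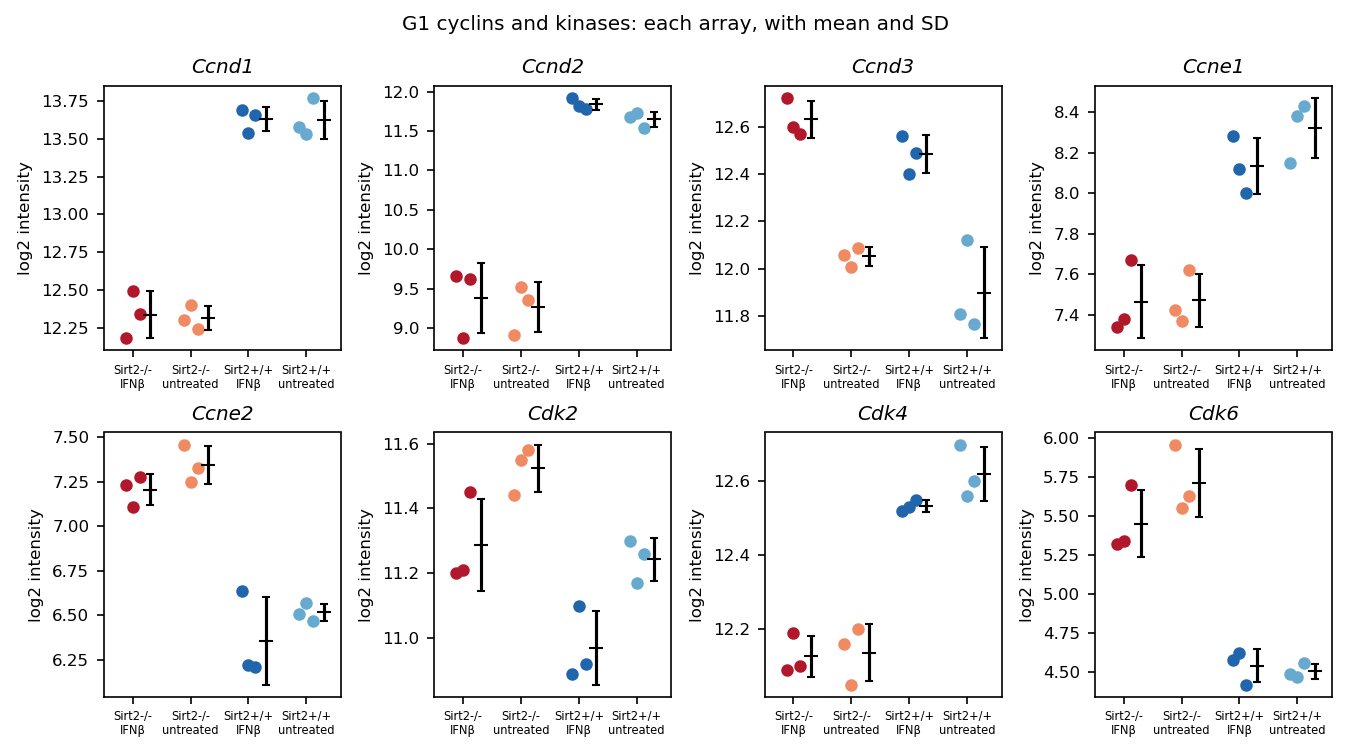
Log2 intensity of the 8 G1 cyclins and kinases on each array (points) with mean and SD of the 3 arrays (bars), Sirt2-/- left of Sirt2+/+ and IFNβ left of untreated. Ccnd1, Ccnd2, Ccne1 and Cdk4 are lower and Ccne2 and Cdk6 higher on all knockout arrays, and Ccnd3 is higher on all IFNβ-treated arrays than on the untreated arrays of the same genotype.

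The genes of G2 and mitosis were mostly higher in the knockout. Without IFNβ 6 of the 10 measured rose (Ccna2, Plk1, Aurka, Bub1b, Top2a, Birc5), which is 60%, against 27.1% of all genes. Cdk1 fell, and Cdc20, Aurkb and Foxm1 did not pass the test, with a median of 0.36 over the 10. These calls rest on the brightest probe of each gene: the 3 other probes of Cdc20 passed in untreated cells (0.44 ± 0.11, 0.51 ± 0.11 and 0.40 ± 0.14, adjusted p over all probes from 0.00155 to 0.0298), as did the second probe of Foxm1 (0.29 ± 0.10). With IFNβ 7 rose (70%, against 27.1% of all genes) and none fell, with a median of 0.40.

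Ccna2, the cyclin of S and G2 phase, was at 8.15, 8.13 and 8.07 on the treated and 8.35, 8.18 and 8.07 on the untreated knockout arrays, against 7.26, 7.46 and 7.13 on the treated and 7.01, 7.42 and 7.23 on the untreated wild-type arrays. No wild-type array reached the knockout values. The difference was 0.84 ± 0.12 with IFNβ and 0.98 ± 0.12 without (adjusted p = 9.90e-05 and 2.56e-05). Plk1, a kinase of mitotic entry and exit, was at 12.52, 12.45 and 12.24 on the treated and 12.36, 12.07 and 12.08 on the untreated knockout arrays, against 11.62, 11.33 and 11.73 on the treated and 11.15, 11.75 and 11.68 on the untreated wild-type arrays. The genotypes did not overlap, although untreated wild-type array 1 lay below the other wild-type arrays. Plk1 was 1.79-fold higher with IFNβ (0.84 ± 0.16) and 1.56-fold higher without (0.65 ± 0.16). Bub1b, a protein of the spindle checkpoint, was at 11.64, 11.60 and 11.51 on the treated and 11.91, 11.70 and 11.59 on the untreated knockout arrays, against 10.91, 10.74 and 11.11 on the treated and 11.39, 11.18 and 11.27 on the untreated wild-type arrays. Treated wild-type arrays were the lowest, and all knockout arrays were above all wild-type arrays. The difference was 0.66 ± 0.12 with IFNβ and 0.45 ± 0.12 without. A dimmer second probe of Bub1b differed by 0.36 ± 0.13 with IFNβ and by 0.11 ± 0.13 without, the last of which did not pass (adjusted p = 0.513), and the mean of both probes differed by 0.28 in untreated cells.

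Aurka, a kinase of the spindle poles, was 1.33-fold higher with IFNβ and 1.35-fold higher without, and Birc5, a subunit of the chromosomal passenger complex, 1.27-fold and 1.31-fold higher. The other 2 probes of Birc5 passed in neither comparison, and its call was lost in 10 of 19 other settings with IFNβ and in 5 without. The untreated call of Top2a, the topoisomerase that separates replicated DNA, was at an adjusted p of 0.0487 with overlapping arrays and was lost in 14 of 19 other settings. Cdk1, the mitotic kinase, was 1.26-fold lower in untreated knockout cells by its brightest probe (-0.34 ± 0.10). Dimmer probes of Cdk1 went the other way, by 0.37 ± 0.23 and, past the test, 0.43 ± 0.16, so its direction depended on the probe.

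The regulators were lower in untreated knockout cells. Rb1, which encodes the E2F inhibitor Rb, was at 7.72, 7.79 and 7.80 on the treated and 7.66, 7.87 and 7.91 on the untreated knockout arrays, against 8.11, 8.18 and 8.29 on the treated and 8.38, 8.26 and 8.38 on the untreated wild-type arrays. Every knockout array was below every wild-type array, by -0.42 ± 0.10 with IFNβ and -0.52 ± 0.10 without (adjusted p = 0.00284 and 0.000613). E2f1, an activating E2F factor, was at 10.49, 10.41 and 10.49 on the treated and 10.42, 10.51 and 10.38 on the untreated knockout arrays, against 10.67, 10.49 and 10.58 on the treated and 10.73, 10.54 and 10.79 on the untreated wild-type arrays. The untreated groups were apart and the treated groups touched at 10.49. The difference of E2f1 was -0.12 ± 0.10 with IFNβ, which did not pass the test, and -0.25 ± 0.10 without (adjusted p = 0.0431), a call lost in 13 of 19 other settings.

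Under IFNβ most of the same cell cycle genes differed between the genotypes. Of the 35 genes 22 were higher in the knockout and 5 lower (77.1% called), compared with 50.3% of all genes (27.1% higher, 23.2% lower), and the median was 0.39, compared with 0.06 over all genes. The groups did not overlap for 33 of the 35 genes (94.3%, against 59.1% of all genes). The treated and untreated comparisons use different arrays, and the sign of the difference was the same in both for 35 of 35 genes, compared with 86.4% of all genes. In both comparisons 19 genes were higher and 5 lower. Cdc20, Pcna and Foxm1 passed the test with IFNβ alone, and Cdt1, Tyms, Cdk1, Top2a and E2f1 without IFNβ alone. By the probe that stands for the gene, however, the difference of the responses passed the test for none of the 35. Without treated wild-type array 2 the counts under IFNβ were again 22 higher and 5 lower, with Birc5 lost and Tyms gained.

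**Figure D4:**
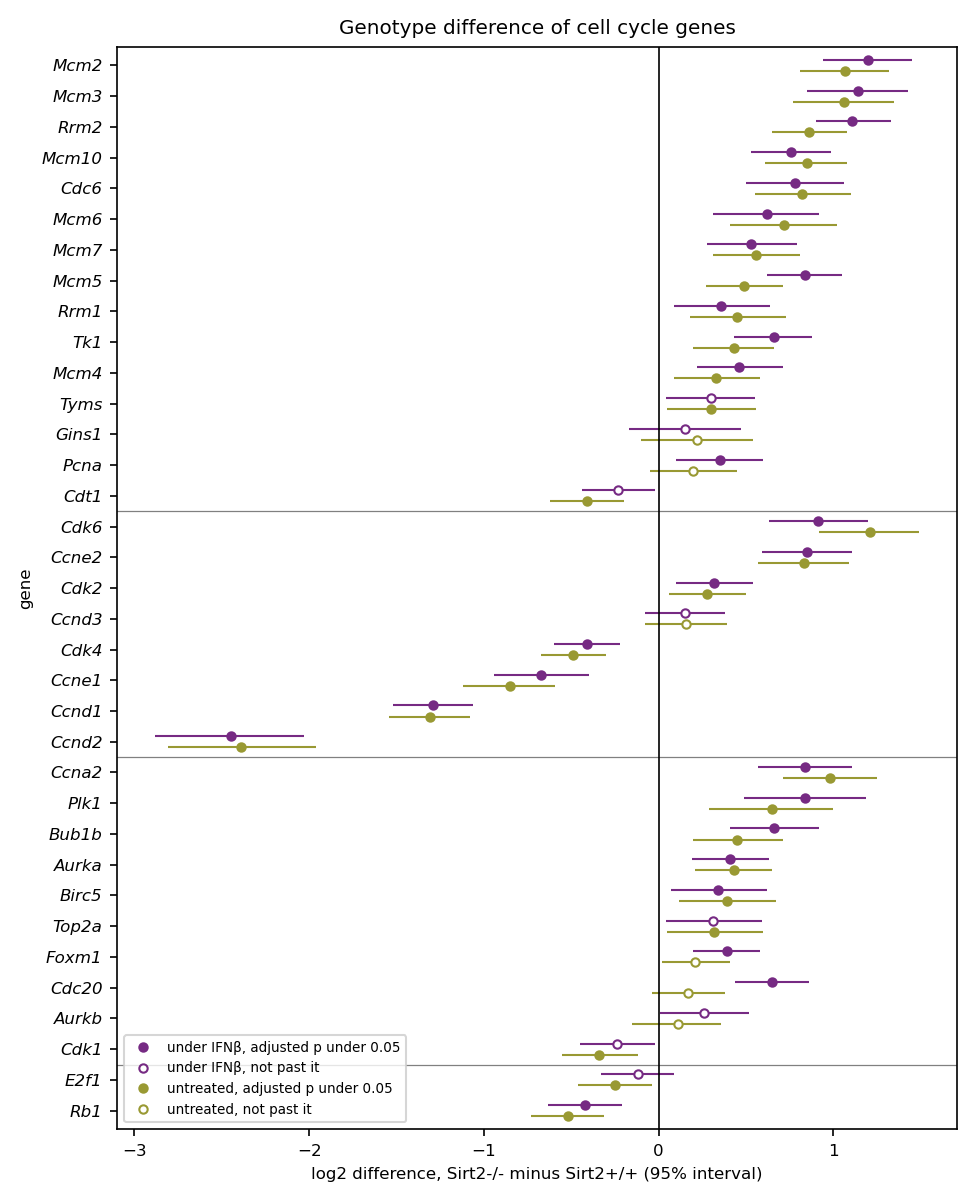
Difference of each gene between Sirt2-/- and Sirt2+/+ cells (log2, points, with 95% intervals) under IFNβ and untreated, with filled points for an adjusted p under 0.05. The blocks are, from the top, replication, G1, G2 and mitosis, and regulators, and the points run from Ccnd2 at -2.45 and -2.39 to Mcm2 at 1.20 and 1.07.

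Averaged over the genes of a role, each taken relative to its mean over all arrays, the replication genes stood at 0.21 to 0.37 on the 6 knockout arrays and -0.37 to -0.22 on the 6 wild-type arrays. The G2 and mitosis genes stood at 0.12 to 0.36 on the knockout and -0.29 to -0.09 on the wild-type arrays. The G1 genes, which were split in direction, averaged -0.24 to -0.05 on the knockout and 0.11 to 0.24 on the wild-type arrays. That average rests on Ccnd2: without it, a choice made after its values were seen, the other 7 stood at -0.08 to 0.07 on the knockout and -0.05 to 0.08 on the wild-type arrays, which overlap. Untreated knockout array 1, with the lowest interferon-induced genes of its group, had the highest replication (0.37) and mitosis (0.36) averages, and arrays 2 and 3 stood at 0.25 and 0.28 for replication and 0.21 and 0.12 for mitosis.

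Few cell cycle genes, like few of all genes, passed the test of a response to 4 h of IFNβ. The shares were 2.86% against 6.61% of all genes in the knockout and 11.4% against 13.8% in wild type. In knockout cells 1 of 35 genes rose (Ccnd3) and none fell, and the median response was -0.05, the same as over all genes, of which 6.61% passed (4.3% higher, 2.31% lower). The counts rest on the brightest probe of each gene. In the knockout a dimmer probe of Mcm10 rose (0.53 ± 0.11, adjusted p over all probes 0.0103). A dimmer probe of Mcm4 fell there (-0.75 ± 0.19, adjusted p 0.0329). In wild-type cells 2 rose (Ccnd3 and Mcm10) and 2 fell (Cdc20 and Tk1), with a median of -0.15, compared with -0.06 over all genes, of which 13.8% passed (6.27% higher, 7.57% lower). Besides those of Ccnd3, dimmer probes of Mcm6 (0.85 ± 0.24), Mcm10 and Ccnd2 rose past the test in wild type, and a dimmer probe of Cdc6 fell (-0.68 ± 0.11). Treated and untreated arrays did not overlap for 6 of 35 genes in the knockout (17.1%, against 26.5% of all genes) and 14 of 35 in wild type (40%, against 30.3%). At an unadjusted p under 0.05, 4 genes differed in the knockout (11.4%, against 19.3% of all genes) and 10 in wild type (28.6%, against 26.3%), so that neither share was far above that of all genes. The knockout response is set against untreated arrays of which 2 carried high interferon-induced transcripts, as described above.

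Ccnd3, a D-type cyclin, was at 12.72, 12.60 and 12.57 on the treated and 12.06, 12.01 and 12.09 on the untreated knockout arrays, and at 12.56, 12.40 and 12.49 on the treated and 11.81, 12.12 and 11.77 on the untreated wild-type arrays. Treated arrays were above untreated arrays in both genotypes. The response was 0.58 ± 0.11 in the knockout (adjusted p = 0.00419) and 0.58 ± 0.11 in wild type (adjusted p = 0.00254), about 1.5-fold in each, and the 3 probes of Ccnd3 showed 0.51 to 0.68 in the knockout and 0.55 to 0.66 in wild type. Without untreated knockout arrays 2 and 3 the knockout response was 0.57 ± 0.17 and no longer passed the test (adjusted p = 0.0977). Unlike Ccnd3, Ccnd1 responded by 0.02 (95% interval -0.21 to 0.26) in the knockout and 0.00 (-0.23 to 0.24) in wild type, and Ccnd2 by 0.12 (-0.30 to 0.55) and 0.19 (-0.24 to 0.61). These are values of the brightest probes. A dim probe of Ccnd2 rose in wild type by 0.78 ± 0.14 (adjusted p over all probes 0.00263). As the mean of its probes Ccnd2 rose there by 0.44 and passed the test (adjusted p = 0.0449).

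Cdc20, the activator of the anaphase-promoting complex, was at 12.26, 12.24 and 12.09 on the treated and 12.33, 12.31 and 12.07 on the untreated knockout arrays, and at 11.52, 11.57 and 11.54 on the treated and 12.09, 12.02 and 12.08 on the untreated wild-type arrays. The 3 treated wild-type arrays were lower than all 9 others. Cdc20 fell by 0.52 on the log2 scale in treated wild-type cells (SE 0.10, adjusted p = 0.00279), compared with -0.04 ± 0.10 in the knockout. The difference of these responses was 0.48 ± 0.14 (adjusted p = 0.224), so that it did not pass the test over all genes. These values are those of the brightest of 4 probes of Cdc20. The 3 others responded by -0.17, -0.13 and -0.39 in the knockout and by -0.27, -0.30 and -0.38 in wild type, where none of them passed (adjusted p over all probes from 0.0983 to 0.149), and the difference of the responses was 0.11, 0.16 and -0.01. As the mean of its probes Cdc20 fell by 0.37 in wild type and passed the test. Tk1, which salvages thymidine, fell in wild type by 0.39 (SE 0.10, adjusted p = 0.0263), and Mcm10 rose there by 0.35 ± 0.11 (adjusted p = 0.0485). The second probe of Tk1 did not pass in wild type (-0.26), and the other 2 probes of Mcm10 there were at 0.63, past the test, and -0.03. Over 19 other settings the adjusted p of Tk1 ran from 0.00753 to 0.0897 and that of Mcm10 from 0.0183 to 0.164. Without treated wild-type array 2 alone, the adjusted p was 0.0669 for Tk1 and 0.0866 for Mcm10.

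By the probe that stands for each gene, no cell cycle gene passed the test of a different response in knockout and wild type. Limma called 0 of 35, compared with 0.503% of all genes (0.115% with a more positive and 0.388% with a more negative response in the knockout). At an unadjusted p under 0.05 there were 2, Mcm5 (0.35 ± 0.14) and Cdc20, and the lowest adjusted p was that of Cdc20. Over all genes 7.55% had an unadjusted p under 0.05. A dim second probe of Cdc6 did pass the test over all probes, at 0.96 ± 0.16 (adjusted p = 0.014), compared with -0.05 ± 0.18 for the brightest. It was detected on 1 treated wild-type array and on all arrays of the other groups. A missed threshold does not show that the responses were equal: the 95% interval of the difference was 0.19 to 0.78 for Cdc20, 0.04 to 0.65 for Mcm5 and -0.33 to 0.32 for Ccnd3.

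**Figure D5:**
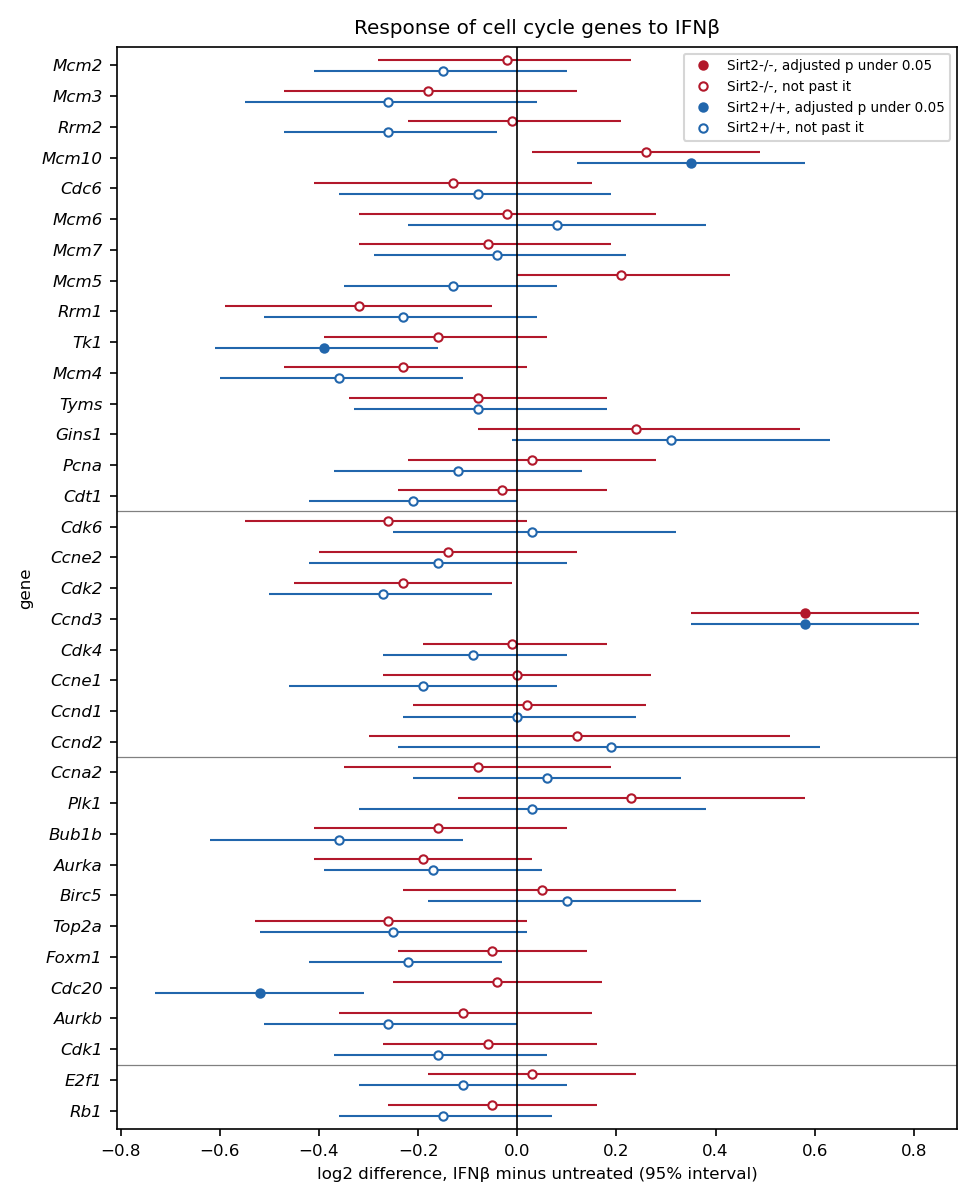
Response of each gene to IFNβ (treated minus untreated, log2, with 95% intervals) in Sirt2-/- and Sirt2+/+ cells, with filled points for an adjusted p under 0.05. Ccnd3 stands at 0.58 in both genotypes, Cdc20 at -0.04 in the knockout and -0.52 in wild type, and most other intervals include 0.

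Further genes of the same pathways were taken from lists drawn up by function. Of 14 further genes of origin licensing and firing, 10 were higher in the knockout with IFNβ (median 0.64) and 8 without (0.37), and none was lower. These are 71.4% and 57.1% of the list, and over all genes 27.1% were higher in either comparison. Orc6, a subunit of the origin recognition complex, was 1.85-fold and 1.88-fold higher, Cdc7, a kinase of origin firing, 2.02-fold and 1.81-fold, and Cdc45, a helicase cofactor, 2.15-fold and 1.79-fold. Of 27 measured genes of the replication fork and of the use of nucleotides and chromatin behind it, 24 were higher and 1, Rpa3, lower, both with IFNβ (median 0.67) and without (0.73), so that 88.9% of the list was higher. They include Dut, the dUTPase, which was 3.28-fold higher with IFNβ and 3.07-fold higher without, Rfc4, a subunit of the clamp loader, and Chaf1b, of the chromatin assembly factor. Without untreated knockout arrays 2 and 3 the median difference in untreated cells was 0.51 for the licensing genes and 0.75 for the fork genes.

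Of 12 measured genes of the E2F, Rb and DREAM families, 6 were higher with IFNβ (50%), and without it 7 were higher (58.3%) and 1, E2f6, was lower. Without untreated knockout arrays 2 and 3 the median difference of these genes in untreated cells was 0.47, compared with 0.35 with them. Mybl2, which activates genes of G2 and mitosis, was 2.53-fold higher with IFNβ and 3.00-fold higher without. E2f4, a factor of the repressive complexes, was 1.93-fold and 2.01-fold higher. E2f7, a repressor not detected in untreated wild-type cells, was at least 1.71-fold higher in untreated knockout cells. Of 34 measured genes of the spindle, kinetochore and mitotic entry, 22 were higher in the knockout with IFNβ (median 0.41), 11 without (0.26), and none was lower. That is 64.7% of the list with IFNβ and 32.4% without, so that the untreated share of higher calls was near the 27.1% of all genes. Melk, a kinase, was 2.86-fold higher with IFNβ and 2.36-fold higher without, Kif23, a motor of cytokinesis, 2.24-fold and 1.83-fold, and Nek2, a centrosomal kinase detected on no wild-type array, at least 1.49-fold and at least 1.45-fold. In wild-type cells 9 of these 34 genes (26.5%) fell with IFNβ, compared with 7.57% of all genes. In the knockout 1 of the 34, Pttg1, rose (mean 6.62 treated, 5.34 untreated) and none fell. Pttg1 passed the detection filter through the treated knockout group alone, which favours such a rise. The 9 include Kif23 (-0.47 ± 0.10) and Melk (-0.40 ± 0.12), no gene of the list passed the test of a different response between the genotypes, and 6 of the list fell without treated wild-type array 2.

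Among these lists the largest differences were those of inhibitors of cyclin-dependent kinases. Cdkn2a, whose locus encodes the CDK4 and CDK6 inhibitor p16 and the p53 regulator Arf, which its probe was not checked to tell apart, was at 11.60, 11.70 and 11.82 on the treated and 11.76, 11.76 and 11.55 on the untreated knockout arrays, against 4.49, 6.42 and 4.42 on the treated and 4.39, 4.63 and 4.33 on the untreated wild-type arrays. It was high on every knockout array and detected on 1 wild-type array, treated array 2. By this probe, the brightest, Cdkn2a was at least 108-fold higher in untreated knockout cells. The size depended on the probe: with IFNβ and without treated wild-type array 2, this probe differed by 7.25 ± 0.13. Other probes of Cdkn2a differed by 6.26 ± 0.18 and 3.96 ± 0.17 in the same comparison. Its neighbour Cdkn2b, another inhibitor of these kinases, was at 8.84 to 9.22 on all knockout arrays and 4.36 to 5.99 on the wild-type arrays, of which it was detected on 1 treated (array 2, the highest) and 1 untreated array. Most wild-type values of Cdkn2b lie near background, so the size of its difference, 4.06 ± 0.33 with IFNβ and 4.21 ± 0.33 without, is not exact, and without treated wild-type array 2 the first was 4.58 ± 0.18. Cdkn1a, the inhibitor p21, was 4.41-fold lower with IFNβ and 3.69-fold lower without. Of the 7 inhibitors measured, 5 were higher (71.4%) and 1 lower (14.3%) in the knockout with IFNβ, and 4 (57.1%) and 1 without. Over all genes 27.1% were higher in either comparison, and 23.2% and 24.2% were lower. Without untreated knockout arrays 2 and 3 the median difference of the inhibitors in untreated cells was 0.25, compared with 0.34 with them.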

How the data were processed

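Illumina bead arrays of 1 colour measured the RNA of 12 samples. Per the file headers, the authors deposited 1 intensity per probe and array, linear and neither background-subtracted nor scaled, with a detection p-value per intensity. The authors also deposited log2 values, which equal quantile-normalized log2 intensities within 0.000639 and served as an alternative.

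Background was corrected by normexp from the detection p-values with an offset of 16, followed by quantile normalization and log2 transformation (neqc, limma 3.58.1, R 4.3.3). Probes with a detection p under 0.05 on all 3 arrays of a group were kept (17837 of 45281), and the kept probe with the highest mean stood for its gene (21 of the 35 genes had several). GEO's platform annotation names 34885 probes with 1 symbol, 18 with several and 10378 with none. A mean per group was fitted to all 12 arrays with limma and empirical Bayes, 5 contrasts were tested two-sided, and p-values were adjusted over 12128 genes. A gene undetected on every array of a group has a fold bounded by the background level. Cdk6 and, of the further lists, E2f7, Nek2, Pttg1, Cdkn2a and Cdkn2b passed the detection filter through knockout groups alone, which favours a higher call. For Pttg1 this was the treated knockout group only. The procedure was tested on simulated data. The number of arrays limits the precision. Values per array are printed for the 3 genes of each role with the largest called difference in untreated cells. Genes of the further lists were named by the same rule. The genes, lists, rule and alternatives were chosen with earlier results of these data known. Ccnd3, Cdc20, Cdkn2a and 1 probe of Mcm6 were given per array after their values were seen.

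Replicate numbers in the titles did not pair the samples: over all genes, same-numbered samples correlated between -0.115 and 0.176 after the group means were removed. Alternatives changed the normalization, the detection filter, the probe choice, the groups fitted, the replicate block and the arrays used.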

Additional observations from a re-analysis of the deposited data

How the results depend on the processing

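Over 19 alternatives the genotype calls kept their direction except for Cdk1 in untreated cells, which turned to 0.15 (adjusted p = 0.305) as the mean of its probes. Of the 29 genes called in untreated cells 21 passed in every alternative, and of the 27 called with IFNβ 23 did. The interferon calls moved more. In wild type 1 gene rose instead of 2 with median scaling, no detection filter, a fit of only the compared groups, the replicate block, and without untreated knockout arrays 2 and 3, and leaving out single arrays gave 1 to 2. With the authors' log2 values 6 genes fell in wild type instead of 2, with the mean of all probes 3, and leaving out single arrays gave 1 to 3. In the knockout 2 genes rose with the mean of all probes and 0 without untreated knockout arrays 2 and 3. The replicate block otherwise cost the untreated calls of Tyms and E2f1 and, with IFNβ, that of Birc5, and added Top2a. With median scaling the share of higher calls among all genes in the knockout response was 34.5%, compared with 65.1%, and no called gene of the cell cycle set changed direction. A slide block could not be fitted, as the files name no slide. Probes near background, such as Cdk6, give bounds only, and with 3 arrays a group small differences cannot be resolved.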
